A study of Mus musculus with 8 samples.

Results

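The lysosome and the autophagy pathway were followed through 56 genes in pancreatic tumour isografts of mice, sequenced as whole tissue. The set holds every gene of the table whose symbol starts with Atp6v0, Atp6v1 or Atp6ap, 23 genes, and 33 genes named singly that encode lysosomal hydrolases, lysosomal membrane and lipid transfer proteins, MiT transcription factors and proteins of autophagy. It makes up 56 of the 19129 genes of the table. By role the genes fall into the V1 sector (11 genes) and the V0 sector (10 genes) of the V-ATPase, its accessory subunits (2), lysosomal hydrolases (11), lysosomal membrane and lipid transfer (6), MiT transcription factors (3), ATG8 proteins and receptor (6) and autophagy machinery (7). All but Atp6v0c-ps2, a pseudogene of the proteolipid subunit gene, are protein coding, and they lie on 18 chromosomes.

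The V-ATPase is a rotary proton pump whose cytosolic V1 sector hydrolyses ATP and whose membrane V0 sector carries protons into the lysosome, where the acid pH lets the hydrolases work. Autophagy encloses cytoplasm in a double membrane built with lipid-bound ATG8 proteins (LC3 and GABARAP) and delivers it to the lysosome, and pancreatic cancer cells are known for their reliance on it. TFEB, TFE3 and MITF bind E-box elements in promoters of lysosomal and autophagy genes, and phosphorylation by mTORC1 and by ERK is known to keep TFEB out of the nucleus. Inhibition of MEK, the kinase that activates ERK, is known to raise autophagy in pancreatic cancer cells. Transcript levels do not measure autophagic flux, lysosomal pH or where TFEB resides.

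RNA was taken from 8 mice. Libraries of 4 mice are labelled MEKi, for trametinib (a MEK inhibitor) given over 7 days, and libraries of the other 4 mice are labelled control. Tumours under both labels are isografts, grafts between genetically matched mice, taken from the pancreas. Treatment of the control mice, strain, age and the origin of the graft were not given in the sources used here. MEKi 1 to 4 and control 1 to 4 below are the libraries by label and replicate number. Values are on the variance-stabilised log2 scale the authors deposited. For abundant genes 1 unit of this scale is nearly a doubling, and for genes with few reads it stands for more. Errors are SDs over the 4 libraries of a label and describe the spread between mice.

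In RefSeq promoter windows of GRCm38.p6, 250 bases before to 50 after each gene's start, the E-box letters CACGTG were found in 14 of the 44 genes of the set that had a window (31.8%), against 10.65% of the 12831 tested genes with one. The longer TCACGTGA, the core of the element called CLEAR, which contains CACGTG, was in 7 of 44 (15.9%) against 1.93%, and TCATGTGA was in 2 of 44 (4.5%) against 1.01%. Both strands were searched, and overlapping CACGTG and TCACGTGA are counted in both. By class TCACGTGA was in 3 of 10 hydrolase genes, 2 of 7 V0 genes, 1 of 7 V1 genes and 1 of 5 lysosomal membrane genes, and in 0 of 5 ATG8 and receptor genes, 0 of 5 autophagy machinery genes, 0 of 3 MiT genes and 0 of 2 accessory genes. A match describes letters and does not show a bound site. The windows below are shown because they hold the element through which MiT factors are known to act on this gene set. They are the 4 with TCACGTGA whose genes had the smallest limma p, and Lamp1, which was added after its letters were seen because it holds 4 copies of CACGTG. Each runs from 250 bases before to 10 bases after the RefSeq start on the gene's own strand, and capitals mark the searched letters.
Gla, alpha-galactosidase A, chrX:134600996-134601255, minus strand: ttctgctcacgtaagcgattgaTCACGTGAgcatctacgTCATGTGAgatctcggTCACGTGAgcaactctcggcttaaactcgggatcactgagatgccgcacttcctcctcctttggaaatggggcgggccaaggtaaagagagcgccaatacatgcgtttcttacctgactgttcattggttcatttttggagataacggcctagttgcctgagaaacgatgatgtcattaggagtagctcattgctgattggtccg
Mcoln1, the lysosomal calcium channel mucolipin, chr8:3500269-3500528, plus strand: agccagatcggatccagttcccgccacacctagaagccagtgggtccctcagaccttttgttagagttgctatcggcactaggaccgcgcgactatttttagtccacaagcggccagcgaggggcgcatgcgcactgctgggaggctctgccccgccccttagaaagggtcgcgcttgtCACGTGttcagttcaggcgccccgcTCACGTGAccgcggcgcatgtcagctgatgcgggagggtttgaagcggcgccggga
Atp6v0d1, the d subunit of the V0 sector, chr8:105566055-105566314, minus strand: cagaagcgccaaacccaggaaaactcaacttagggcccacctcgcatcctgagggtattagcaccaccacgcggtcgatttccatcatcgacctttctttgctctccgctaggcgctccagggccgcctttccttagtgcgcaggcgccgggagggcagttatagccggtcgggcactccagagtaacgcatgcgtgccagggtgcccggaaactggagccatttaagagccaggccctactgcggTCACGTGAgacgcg
Ctsd, the aspartic protease cathepsin D, chr7:142387818-142388077, minus strand: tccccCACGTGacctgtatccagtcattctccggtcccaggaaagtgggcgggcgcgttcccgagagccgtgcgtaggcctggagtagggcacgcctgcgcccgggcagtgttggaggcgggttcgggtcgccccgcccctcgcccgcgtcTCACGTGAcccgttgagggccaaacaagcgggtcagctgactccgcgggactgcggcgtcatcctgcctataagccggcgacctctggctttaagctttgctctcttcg
Lamp1, a major glycoprotein of the lysosomal membrane, chr8:13158911-13159170, plus strand: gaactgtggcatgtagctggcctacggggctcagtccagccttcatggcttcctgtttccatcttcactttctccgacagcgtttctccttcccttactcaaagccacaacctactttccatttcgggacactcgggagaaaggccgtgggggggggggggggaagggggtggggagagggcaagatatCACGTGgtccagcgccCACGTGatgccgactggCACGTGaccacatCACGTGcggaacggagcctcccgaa

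Gla holds 2 copies of TCACGTGA and 1 of TCATGTGA, and its CACGTG letters begin 227 and 194 bases before the start. In Lamp1 the 4 copies of CACGTG begin 61, 45, 28 and 15 bases before the start. Atp6v1a, Atp6v0e and Ctsa are the other genes with TCACGTGA. With the search limited to the 150 bases nearest the start, CACGTG was in 9 of 44 genes (20.5%) against 6.74% of tested genes, and TCATGTGA in 1 of 44. No window was used for Atg16l1, Atp6v0c-ps2, Atp6v1c1, Npc1, Becn1, Atp6v1g1, Ctsb, Atp6v0a2, Map1lc3a, Atp6v0d2, Atp6v1b2 and Atp6v1h.

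The libraries held between 20090101 and 38569550 reads in tested genes. Dusp6, an ERK phosphatase gene switched on by ERK itself, had 8.88, 12.12, 12.20 and 11.01 in MEKi 1 to 4, against 12.19, 12.14, 9.31 and 9.24 in control 1 to 4. High and low libraries thus occur under both labels, the difference of 0.33 had an exact two-sided permutation p of 0.943 over 70 relabellings (the smallest possible is 0.0286), and the drug label is not borne out by this gene. Acinar marker means ran from 5.87 to 11.46 in the libraries labelled MEKi and from 8.39 to 17.06 in those labelled control, where control 2 and control 3 had 15.39 and 17.06. Macrophage marker means, of interest because macrophages are rich in lysosomes, ran from 10.47 to 10.75 under the MEKi label and from 10.52 to 11.41 under the control label. In whole tissue, fewer cells of a type and less RNA per cell cannot be told apart.

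Between the labels, 0 of the 56 genes passed limma at an adjusted p of 0.05 over all 19129 genes, against 0.00523% of all genes (1 gene). At an unadjusted limma p under 0.05 stood 0 of the 56 genes, against 1.77% of all genes, and the adjusted p was 0.9996 for each of the 56. The smallest unadjusted limma p in the set was 0.1364, for Gla. In sign, 27 genes were higher and 29 lower under the MEKi label, which is 48.2% higher against 51.5% of all genes. The median absolute difference was 0.06, against 0.09 over all genes, and the largest was -0.24 for Ctsl.

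On the deposited scale, the 95% interval of the difference lay within 0.5 of 0 on either side for 49 of the 56 genes, within 0.75 for 54 and within 1 for all 56. The widest reach was -0.85 for Atp6v0d2 (46 to 244 reads per library) and 0.68 for Atp6v1b1 (0 to 45 reads). Genes with many reads reached nearly as far, such as Atp6v0c to -0.75 and Ctsl to -0.71. All 4 libraries labelled MEKi lay above all 4 labelled control for 1 of the 56 genes, Atg5, against 0.565% of all genes, and below them for 0 of the 56, against 0.701%. A p that misses the threshold does not show that the labels were alike. For genes with few reads the deposited scale is compressed and these intervals do not bound the difference in reads: with voom on the recovered reads the difference was 0.76 for Atp6v1b1 and 0.53 for Atp6v1c2, beyond the upper ends of 0.68 and 0.39.

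**Figure D1:**
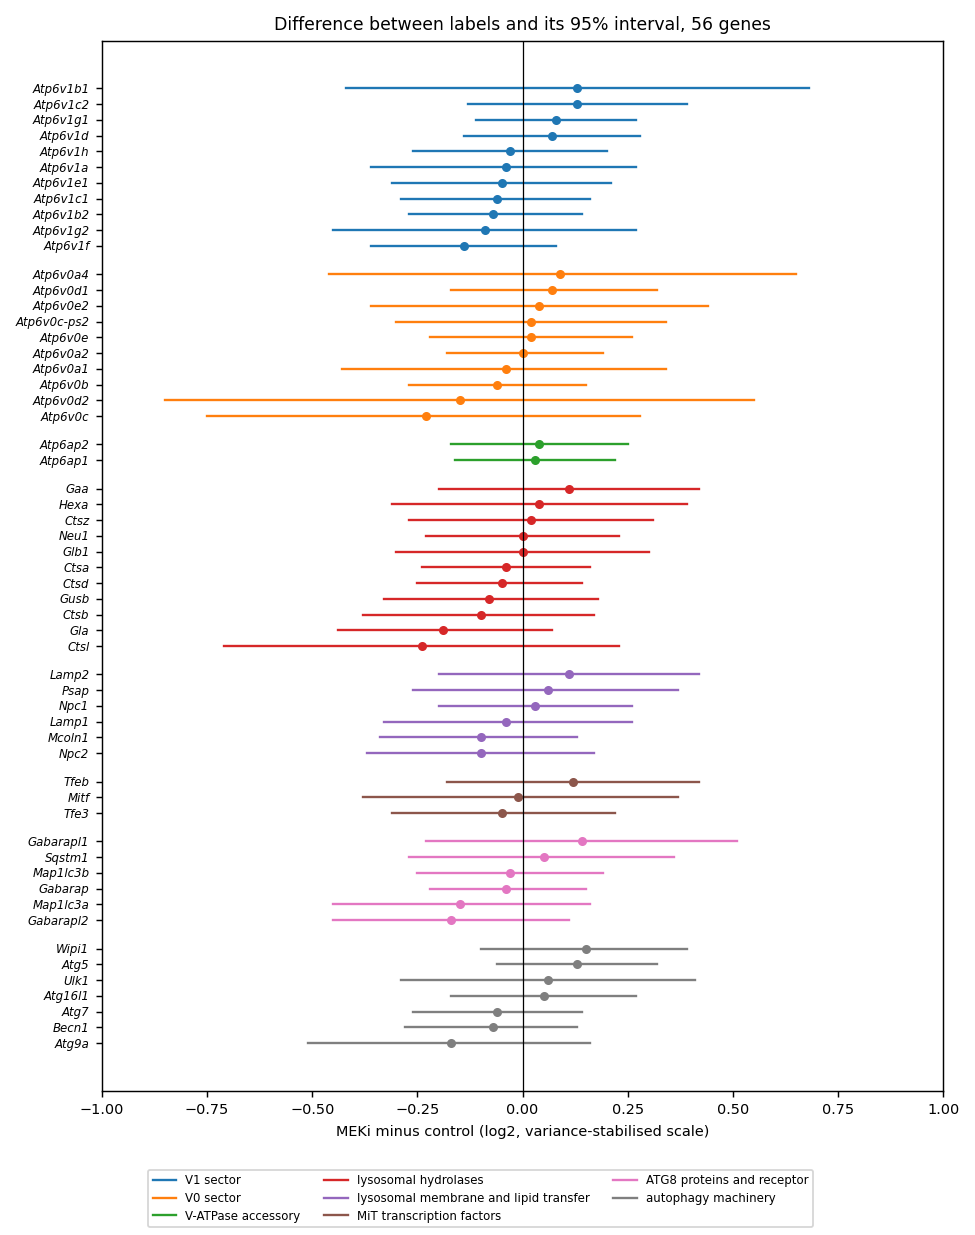
Difference between the labels (MEKi minus control, log2 of the variance-stabilised scale, horizontal axis) for the 56 genes, grouped and coloured by class; points are limma estimates and bars 95% intervals from 4 libraries per label. Every bar crosses 0, and the estimates lie between -0.24 (Ctsl) and 0.15 (Wipi1).

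In the V1 sector, the cytosolic ATP-hydrolysing part of the pump, the class mean was 9.98 ± 0.11 in the libraries labelled MEKi and 9.99 ± 0.04 in those labelled control (SD, n = 4 each). Differences of its 11 genes ran from -0.14 to 0.13, with 4 higher and 7 lower in sign. Atp6v1f, which encodes the small F subunit of the central stalk (chromosome 6, 29467718 to 29470512), had 11.14, 11.21, 10.97 and 10.87 in MEKi 1 to 4, against 11.13, 11.19, 11.16 and 11.27 in control 1 to 4. Its labels overlapped, with MEKi 3 and MEKi 4 lowest, and the difference was -0.14 (SE 0.10, limma adjusted p = 0.9996). Atp6v1g1, the widely expressed G subunit of the stator, had 11.34, 11.43, 11.48 and 11.47 under the MEKi label, against 11.49, 11.31, 11.27 and 11.32 under the control label. Control 1 stood highest and the other three control libraries lowest.

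Atp6v1a, which encodes the catalytic A subunit (chromosome 16, 44085402 to 44139705), had 11.39, 11.47, 11.16 and 11.84 in the libraries labelled MEKi, against 11.60, 11.56, 11.46 and 11.41 in those labelled control. The lowest and the highest of the 8 values were thus both under the MEKi label, in MEKi 3 and MEKi 4. Atp6v1b1 and Atp6v1c2 encode isoforms of subunits B and C best known from kidney epithelium, and both lay near the floor of 5.12 that stands for 0 reads. Atp6v1b1 had 2, 3, 5 and 45 reads in MEKi 1 to 4, against 0, 4, 5 and 13 in control 1 to 4. Atp6v1c2 had 11, 10, 6 and 19 reads in MEKi 1 to 4, against 9, 4, 4 and 7 in control 1 to 4. MEKi 4, the most deeply sequenced library, had the most reads of both genes. On the deposited scale, which takes depth into account, Atp6v1b1 was still highest in MEKi 4 (6.39). Atp6v1c2 was highest in MEKi 2 (5.98), with 5.96 in MEKi 4. Recomputed with limma voom on the recovered reads, their log2 differences were 0.76 and 0.53, against 0.13 for each on the deposited scale, and neither passed the test.

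The V0 sector, the membrane part that conducts protons, had class means of 9.42 ± 0.08 under the MEKi label and 9.44 ± 0.07 under the control label (SD, n = 4 each). Atp6v0d2, an isoform of the d subunit known from osteoclasts and kidney (chromosome 4, 19876841 to 19922605), had 7.40, 7.88, 7.24 and 7.13 in MEKi 1 to 4, against 8.40, 7.76, 6.94 and 7.16 in control 1 to 4. Its range of 1.46 was the widest of the 56 genes, and both the highest and the lowest library carried the control label. Osteoclast-type markers had means between 7.86 and 8.35 under the MEKi label and between 7.99 and 8.30 under the control label, with 5 of 6 markers measured and Oscar at 0 reads in 1 library, and their part in this was not tested.

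Atp6v0c encodes the proteolipid of the rotor ring (chromosome 17, 24163866 to 24169702). It had 10.33, 10.43, 9.95 and 9.24 in the libraries labelled MEKi, against 10.17, 10.31, 10.25 and 10.15 in those labelled control. MEKi 4 alone lay far below the others, and the difference of -0.23 (SE 0.23) became 0.02 without it. The pseudogene Atp6v0c-ps2 had 48, 27, 33 and 32 reads in MEKi 1 to 4, against 25, 49, 19 and 20 in control 1 to 4, and reads may be shared between it and Atp6v0c. Atp6v0b, a proteolipid of the same ring, had 10.56, 10.63, 10.83 and 10.56 in MEKi 1 to 4, against 10.72, 10.78, 10.64 and 10.67 in control 1 to 4. Atp6v0d1, the widely expressed d subunit whose TCACGTGA letters lie at the start (chromosome 8, 105524465 to 105566047), had 10.22, 10.25, 10.55 and 10.46 under the MEKi label, against 10.27, 10.44, 10.18 and 10.29 under the control label. MEKi 3 and MEKi 4 were highest, and the labels overlapped.

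Of the accessory subunits, Atp6ap1 encodes Ac45, an assembly factor of V0, and Atp6ap2 the protein also called the prorenin receptor. Atp6ap1 had 12.36, 12.12, 12.18 and 12.21 in MEKi 1 to 4, against 12.16, 12.21, 12.14 and 12.24 in control 1 to 4. Atp6ap2 had 11.25, 11.37, 11.53 and 11.49 in MEKi 1 to 4, against 11.49, 11.37, 11.33 and 11.29 in control 1 to 4. Their ranges over all 8 libraries, 0.24 and 0.28, were among the narrower of the set, and the labels overlapped in both.

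Lysosomal hydrolases averaged 11.92 ± 0.03 in the libraries labelled MEKi and 11.97 ± 0.11 in those labelled control (SD, n = 4 each), with 5 of 11 genes higher and 6 lower in sign. The class difference was -0.05 from these means and 0.16 from class medians. Gla, which removes galactose from glycolipids and is mutated in Fabry disease (chromosome X, 134588149 to 134601125), had 9.01, 9.0, 8.97 and 9.11 in MEKi 1 to 4, against 9.28, 9.38, 9.05 and 9.12 in control 1 to 4. The highest value under the MEKi label lay between the lowest and the second lowest under the control label, and the difference was -0.19 (SE 0.11, 95% interval -0.44 to 0.07, limma unadjusted p = 0.1364). Ctsl, the cysteine protease cathepsin L (chromosome 13, 64359337 to 64370890), had 13.13, 13.73, 13.24 and 13.14 in MEKi 1 to 4, against 13.84, 13.89, 13.43 and 13.04 in control 1 to 4. Control 4 was lowest and control 2 highest, so the labels overlapped fully, and the difference of -0.24 had an SE of 0.21. With the macrophage marker mean as a covariate it was 0.05.

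Ctsb, cathepsin B, had 14.53, 14.46, 14.64 and 14.51 in the libraries labelled MEKi, against 14.68, 14.84, 14.38 and 14.65 in those labelled control. Ctsd, cathepsin D, had 12.89, 12.73, 12.80 and 12.72 in MEKi 1 to 4, against 12.82, 12.84, 12.75 and 12.94 in control 1 to 4. Differences were -0.10 (SE 0.12) and -0.05 (SE 0.09), and the labels overlapped for both genes. Hexa, a subunit of beta-hexosaminidase, had 11.28, 10.88, 11.57 and 11.34 under the MEKi label, against 11.19, 11.42, 10.97 and 11.34 under the control label, and libraries of both labels lay at the low end. Of the others, Ctsa, Ctsz, Gaa, Glb1, Gusb and Neu1, which encode a carboxypeptidase, another cathepsin and 4 glycosidases, differed by between -0.08 and 0.11. Control 2 was the highest of the 8 libraries for 5 of the 11 hydrolase genes, against 10.9% of all genes, and control 3 the lowest for 4, against 10.1% of all genes. The macrophage mean was 11.41 in control 2, the highest of the 8 libraries, and 10.77 in control 3. The fit with this mean as a covariate concerned the difference between the labels. The part of macrophages in these library ranks was not tested.

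Lysosomal membrane and lipid transfer genes averaged 12.72 ± 0.05 under the MEKi label and 12.73 ± 0.10 under the control label (SD, n = 4 each). Lamp1 (chromosome 8, 13159161 to 13175338) had 13.42, 13.47, 13.60 and 13.01 in MEKi 1 to 4, against 13.49, 13.45, 13.32 and 13.39 in control 1 to 4. Lamp2, its close relative and the receptor of chaperone-mediated autophagy, had 12.84, 13.03, 13.16 and 13.46 in MEKi 1 to 4, against 13.18, 12.99, 12.98 and 12.89 in control 1 to 4. MEKi 4 was the lowest library for Lamp1 and the highest for Lamp2, and differences between the labels were -0.04 (SE 0.13) and 0.11 (SE 0.14).

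Mcoln1 had 10.89, 10.80, 10.84 and 10.49 in the libraries labelled MEKi, against 10.85, 10.89, 10.79 and 10.90 in those labelled control. Npc2, which hands cholesterol to NPC1, had 13.05, 13.08, 12.92 and 12.89 in MEKi 1 to 4, against 13.21, 13.23, 12.76 and 13.11 in control 1 to 4. MEKi 4 was lowest for Mcoln1 and control 3 for Npc2. Npc1 and Psap, the precursor of the saposins that help hydrolases reach lipids, differed by 0.03 and 0.06, and Psap by 0.32 after quantile normalization.

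Transcripts of the MiT factors, which drive many of these genes when nuclear, were also close between the labels. Tfeb (chromosome 17, 47737030 to 47792419) had 8.97, 8.85, 9.01 and 9.05 in MEKi 1 to 4, against 8.56, 8.82, 8.99 and 9.02 in control 1 to 4. Tfe3 (chromosome X, 7762560 to 7775202) had 10.25, 10.52, 10.51 and 10.21 in MEKi 1 to 4, against 10.41, 10.63, 10.36 and 10.26 in control 1 to 4. Mitf (chromosome 6, 97807052 to 98021349) had 7.68, 7.61, 8.16 and 7.82 in MEKi 1 to 4, against 7.92, 8.04, 7.64 and 7.70 in control 1 to 4. The labels overlapped for all 3 genes, with differences of 0.12 (SE 0.13), -0.05 (SE 0.12) and -0.01 (SE 0.17), and control 1 was the lowest library for Tfeb.

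Among ATG8 proteins and receptor, Sqstm1 encodes p62, the receptor that carries ubiquitylated cargo into autophagosomes. It had 12.31, 12.66, 12.40 and 12.95 in the libraries labelled MEKi, against 12.57, 12.59, 12.58 and 12.39 in those labelled control, with the highest and the lowest library both labelled MEKi. Map1lc3b, the LC3 form commonly used to follow autophagosomes, had 12.13, 12.13, 12.05 and 12.34 in MEKi 1 to 4, against 12.11, 12.14, 12.36 and 12.17 in control 1 to 4. Their differences were 0.05 (SE 0.14) and -0.03 (SE 0.10). Gabarapl1, a GABARAP paralogue, had 11.52, 11.42, 11.27 and 12.05 under the MEKi label, against 11.37, 11.23, 11.48 and 11.62 under the control label. Only MEKi 4 stood above all control libraries.

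Gabarapl2, also called GATE-16, had 11.06, 11.03, 10.74 and 10.57 in MEKi 1 to 4, against 10.97, 11.10, 10.90 and 11.11 in control 1 to 4. Map1lc3a, the other LC3 gene measured, had 8.81, 8.87, 9.02 and 8.61 in MEKi 1 to 4, against 8.73, 8.96, 9.07 and 9.13 in control 1 to 4. MEKi 4 was the lowest library for both, and differences were -0.17 (SE 0.13) and -0.15 (SE 0.14). Gabarap, the most abundant ATG8 transcript per length, had a range of 0.17 over all 8 libraries. The class mean was 11.41 ± 0.07 under the MEKi label and 11.44 ± 0.06 under the control label (SD, n = 4 each).

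Autophagy machinery averaged 10.32 ± 0.08 under the MEKi label and 10.30 ± 0.07 under the control label (SD, n = 4 each). Atg5, part of the conjugate that attaches ATG8 proteins to lipid (chromosome 10, 44268358 to 44364291), had 9.97, 10.02, 10.01 and 10.10 in MEKi 1 to 4, against 9.87, 9.91, 9.88 and 9.94 in control 1 to 4. Every library labelled MEKi lay above every library labelled control, with 9.97 in MEKi 1 beside 9.94 in control 4 at the border, and the difference was 0.13 (SE 0.08, 95% interval -0.06 to 0.32, limma unadjusted p = 0.1696, adjusted p = 0.9996). Limma's moderated SE is wider than this gene's own spread (SD 0.05 under the MEKi label and 0.03 under the control label). Wipi1, which binds the lipid of the forming membrane, had 10.51, 10.78, 10.73 and 10.93 in MEKi 1 to 4, against 10.63, 10.67, 10.62 and 10.44 in control 1 to 4. MEKi 1 lay below 3 control libraries, so the labels overlapped.

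Ulk1, the kinase that starts autophagy and a target of mTORC1, had 10.40, 10.67, 10.33 and 10.98 in the libraries labelled MEKi, against 10.45, 10.67, 10.68 and 10.35 in those labelled control. Atg9a, a scramblase that brings membrane to the growing autophagosome, had 9.45, 9.45, 8.97 and 9.16 in MEKi 1 to 4, against 9.32, 9.63, 9.53 and 9.24 in control 1 to 4. MEKi 3 was the lowest library for both genes. Becn1, Atg7 and Atg16l1, which encode beclin 1, the activating enzyme of the conjugation and the partner of ATG5, differed by -0.07, -0.06 and 0.05.

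**Figure D2:**
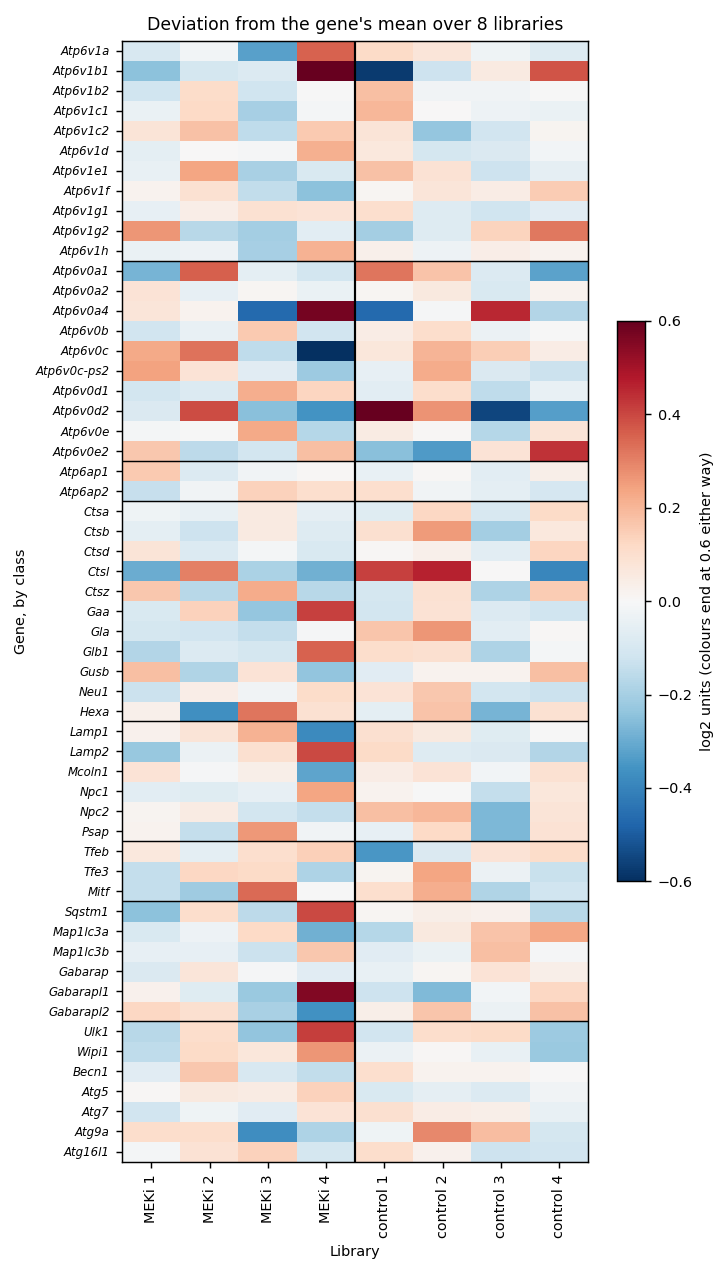
Deviation of each gene (rows, by class) from its own mean over 8 libraries (columns, 4 labelled MEKi at the left and 4 labelled control at the right), in log2 units with colours ending at 0.6 either way. No block of colour follows the labels; MEKi 4 holds many of the strongest deviations, such as low Atp6v0c (9.24) and high Gabarapl1 (12.05).

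In the median, genes of the set varied less from mouse to mouse than all genes. The set is also more abundant, with a mean of 10.77 under the MEKi label against 8.62 over all genes. Genes were not matched for level, so the part of abundance in the narrower ranges was not tested. The median range of a gene over all 8 libraries was 0.43, against 0.62 over all genes and 0.57 over the 10943 genes with a mean of at least 8, a level reached by 50 of the 56. A range under 0.5 was found for 34 of the 56 genes, against 33.1% of all genes, and a range under 1 for 52, against 81.0%. The other 4 genes were Atp6v0d2 (1.46), Atp6v1b1 (1.27), Atp6v0c (1.19) and Atp6v0a4 (1.05), all of the V-ATPase.

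Libraries differed in which genes stood high. MEKi 4 was the highest of the 8 libraries for 15 genes (26.8%, against 23.2% of all genes), among them Atp6v1a, Atp6v1d, Atp6v1h, Gaa, Glb1, Lamp2, Npc1, Sqstm1, Gabarapl1, Ulk1 and Wipi1. It was also the lowest for 11 genes (19.6%, against 21.7% of all genes), including Atp6v0c, Lamp1, Mcoln1, Gabarapl2 and Map1lc3a. In this library the epithelial marker mean was 12.78, against 13.27 to 13.50 in the other libraries labelled MEKi and 13.25 to 13.41 in those labelled control, and the neutrophil mean was 8.29, the lowest of the 8; their part was not tested. Of the 9 epithelial markers, Epcam (10.70), Cldn4 (7.32) and the 4 keratins were lowest in MEKi 4, whereas Cdh1 (14.49) and Muc1 (13.86) were highest there and Sox9 (11.04) was second highest. Control 2 had 42 of the 56 genes above their own median over the libraries, and MEKi 1 and control 3 had 20 of 56 each (35.7%), where the share over all genes was between 49.4% and 50.7% in every library.

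Per length, the set ranges from some of the most abundant transcripts of the tumours to nearly silent ones. Levels here are reads per kilobase of exon, scaled for sequencing depth, which can be compared between genes. Psap had 526 ± 63.6 in the libraries labelled MEKi and 506 ± 59.7 in those labelled control (SD, n = 4 each), above 99.4% of all genes. Next came Ctsb with 193 ± 10.7 under MEKi and 209 ± 26.4 under control, and Lamp1 with 185 ± 30.5 under MEKi and 188 ± 9.60 under control. Ctsz had 178 ± 26.0 under MEKi and 175 ± 19.8 under control, and Gabarap 161 ± 8.19 under MEKi and 165 ± 6.37 under control. For each of these 5 genes the labels differed by less than the larger SD. The 4 lowest genes were Mitf, Atp6v0a4, Atp6v1c2 and Atp6v1b1, at 1.19, 0.257, 0.197 and 0.0918 over all 8 libraries.

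**Figure D3:**
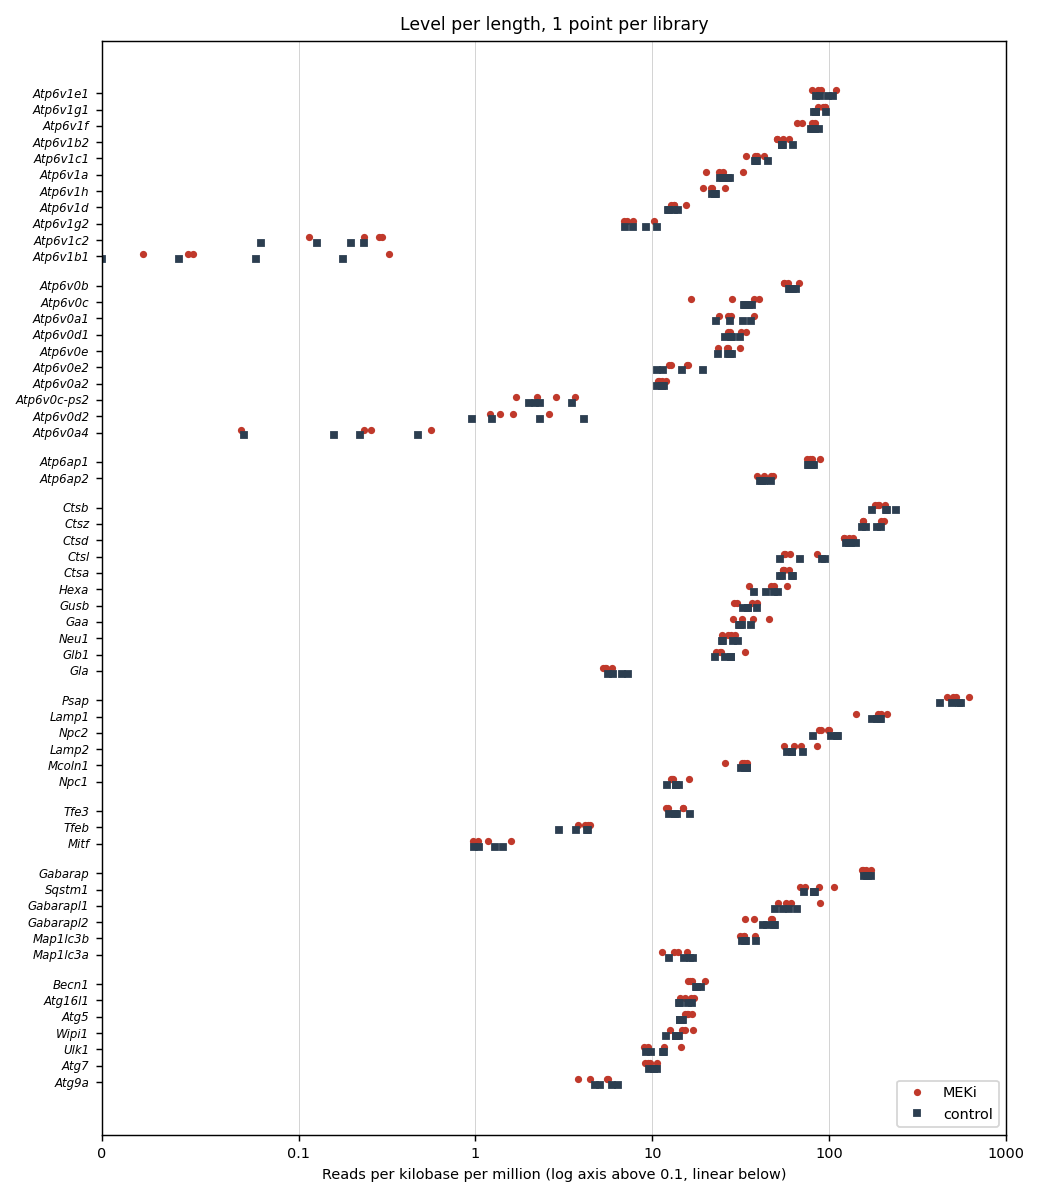
Level of each gene in every library (depth-scaled reads per kilobase of exon; the axis is logarithmic above 0.1 and linear below), 1 point per library, MEKi in red above control in dark blue, genes ordered by level within each class. Most genes lie above 10, and the libraries of both labels overlap for every gene but Atg5.

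Summed over a class, hydrolases made up 795 ± 36.1 depth-scaled reads per kilobase under the MEKi label and 824 ± 70.7 under the control label (SD, n = 4 each). The lysosomal membrane and lipid transfer class had 920 ± 79.7 under MEKi and 906 ± 80.9 under control. The V1 sector had 420 ± 26.7 under MEKi and 431 ± 20.5 under control, and the V0 sector 206 ± 15.8 under MEKi and 212 ± 9.62 under control. Each of these differences was smaller than 1 SD. Autophagy machinery was lower in level, at 89.8 ± 5.13 under the MEKi label and 87.6 ± 3.63 under the control label.

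Where the set holds alternative genes of a subunit or family, the same one of them had the largest share in every library. Atp6v0a1, the a subunit form known best from neurons, supplied 71.1 ± 4.58% of the summed level of Atp6v0a1, Atp6v0a2 and Atp6v0a4 in the libraries labelled MEKi and 71.9 ± 4.00% in those labelled control (SD, n = 4 each). Tcirg1, which encodes the a3 form, does not match the symbol rule and was not included. Of subunit d, Atp6v0d1 supplied 94.5 ± 2.35% under MEKi and 93.1 ± 4.28% under control, and of subunit e, Atp6v0e supplied 65.4 ± 5.12% under MEKi and 65.7 ± 6.26% under control. For the B and C subunits, Atp6v1b2 and Atp6v1c1 supplied at least 99.3% in every library. Among LC3 and GABARAP genes Gabarap supplied 51.2 ± 3.18% under MEKi and 51.8 ± 1.21% under control, and Map1lc3b 10.8 ± 0.629% under MEKi and 10.9 ± 0.655% under control. Of the MiT transcripts, Tfe3 supplied 71.3 ± 3.36% under MEKi and 73.4 ± 3.22% under control, and Tfeb 22.3 ± 2.83% under MEKi and 20.3 ± 3.95% under control.

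**Figure D4:**
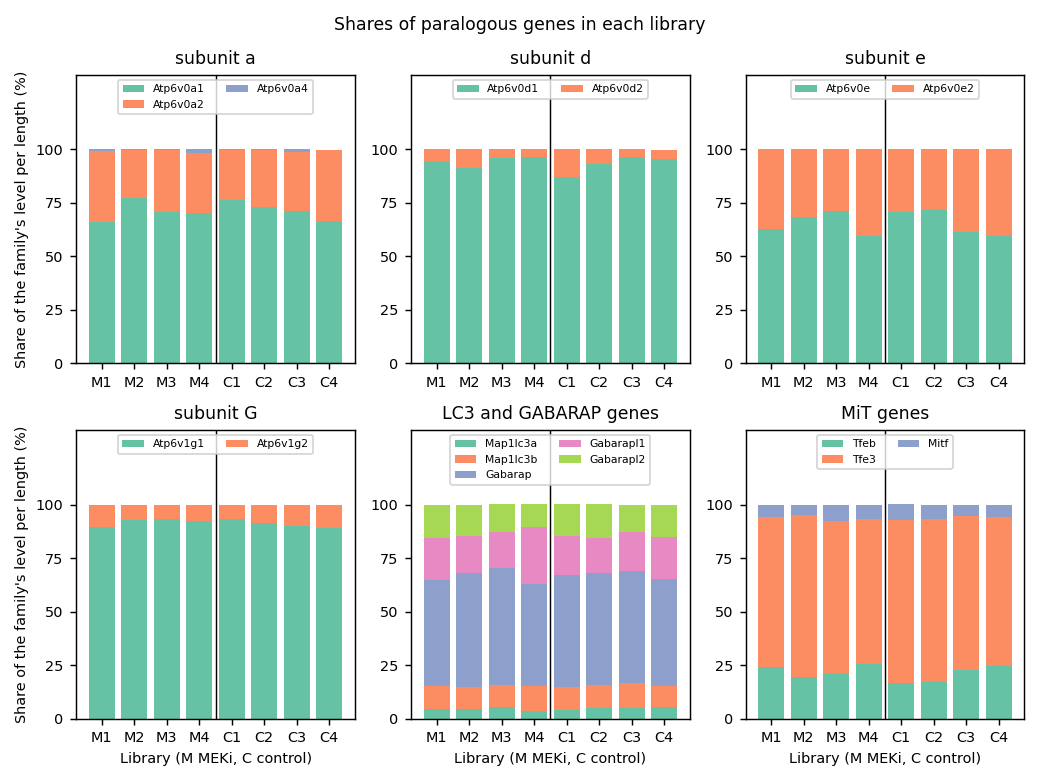
Share of each gene in the summed level per length of its family (vertical axis, %), as stacked bars for each library, MEKi (M1 to M4) left of control (C1 to C4). The leading gene is the same in all 8 bars of each panel, and Atp6v0e2 takes between 28.5% and 40.7% of subunit e.

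Single libraries stood out in these shares. Atp6v0d2 took 5.75%, 8.74%, 3.86% and 3.69% of subunit d in MEKi 1 to 4, against 13.0%, 6.92%, 3.58% and 4.25% in control 1 to 4. Gabarapl1 took 27.1% of the LC3 and GABARAP transcripts in MEKi 4, where the other libraries lay between 16.0% and 19.8%. The share of Tfeb among MiT transcripts was lowest in control 1 (16.6%) and highest in MEKi 4 (25.5%).

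Because the labels and ERK output did not go together, the genes were also set against ERK output itself. In order of rising Dusp6 the libraries run MEKi 1, control 4, control 3, MEKi 4, MEKi 2, control 2, control 1 and MEKi 3. The widest gap between neighbouring values, 1.70, took up 51.3% of the whole range of 3.31, so the values form separate clusters and no correlation with Dusp6 is given. In that order the hydrolase class mean was 11.91, 11.95, 11.83, 11.95, 11.88, 12.11, 11.98 and 11.95. The autophagy machinery mean was 10.25, 10.21, 10.32, 10.38, 10.40, 10.37, 10.31 and 10.23, and the V0 mean 9.45, 9.39, 9.38, 9.33, 9.52, 9.51, 9.49 and 9.38. None of these 3 classes rose or fell steadily along the order, nor did the V1, accessory and MiT means. The ATG8 and receptor mean was 11.37, 11.49, 11.49, 11.49, 11.45, 11.42, 11.36 and 11.33. From control 4 onward it did not rise, but MEKi 1, with the lowest Dusp6, was also low. The lysosomal membrane and lipid transfer mean was 12.70, 12.75, 12.58, 12.68, 12.70, 12.79, 12.79 and 12.79, highest in the 3 libraries with the highest Dusp6.

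A correlation had been planned with Dusp6 alone. The mean of 16 ERK output genes, taken in its place, was not part of the plan. Dusp6 and other dual-specificity phosphatase, Sprouty, Spred and Etv genes are among them, and the mean is somewhat more continuous than Dusp6. It was 9.25, 10.84, 10.55 and 9.92 in MEKi 1 to 4, against 10.70, 10.68, 9.38 and 9.24 in control 1 to 4, with its widest gap at 39.7% of the range. The lowest libraries were control 4, MEKi 1 and control 3, between 9.24 and 9.38. MEKi 4 had 9.92 and the remaining libraries lay between 10.55 and 10.84, so a correlation largely sets low libraries against high ones. Over the 8 libraries, 0 of the 56 genes had a Pearson correlation with this mean that passed an exact permutation test (40320 pairings, Benjamini-Hochberg over 19129 genes), against 0.0% of all genes. The smallest exact p possible is 5e-05, so after this correction 1 gene alone could not pass, however close its relation. The 16 genes that make up the mean did not pass either. This count therefore cannot decide whether genes of the set follow ERK output. At an unadjusted exact p under 0.05 stood 7 of the 56 genes (12.5%), against 14.4% of all genes. The median absolute r was 0.39 in the set and 0.39 over all genes, while r was positive for 37 of the 56 genes (66.1%, against 49.5% of all genes).

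The 3 genes of the set with the smallest exact p encode V-ATPase subunits that have alternative genes, and none passed the adjusted test. Atp6v1g2, the G subunit known from neurons (chromosome 17, 35233660 to 35238767), had 9.13, 8.70, 8.66 and 8.80 in MEKi 1 to 4, against 8.66, 8.79, 9.0 and 9.18 in control 1 to 4. It was highest where ERK output was lowest, in control 4, MEKi 1 and control 3 (Pearson r = -0.93, exact permutation p = 0.00186, adjusted p = 0.162; Spearman rho = -0.83, exact p = 0.0154, adjusted p = 0.266). Without MEKi 1 and control 4, the libraries farthest from the median of the ERK mean, r was -0.87. Its exons overlap those of Nfkbil1 on the other strand, and whether counting used strand was not given.

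Atp6v0a1 (chromosome 11, 101009452 to 101063719) had 11.32, 11.96, 11.54 and 11.49 in the libraries labelled MEKi, against 11.92, 11.77, 11.52 and 11.28 in those labelled control. It ran with ERK output under both labels (r = 0.88, exact permutation p = 0.00704, adjusted p = 0.225; rho = 0.98, exact p = 0.000397, adjusted p = 0.0904), and r was 0.76 without MEKi 1 and control 4. Atp6v0e2, the second e subunit gene (chromosome 6, 48537615 to 48541801), had 9.64, 9.32, 9.37 and 9.66 in MEKi 1 to 4, against 9.23, 9.14, 9.56 and 9.91 in control 1 to 4. It ran the other way (r = -0.87, exact permutation p = 0.00925, adjusted p = 0.240; rho = -0.83, exact p = 0.0154, adjusted p = 0.266), with r at -0.81 without the same libraries. For each unit of the ERK mean the values changed by 0.33 for Atp6v0a1, -0.32 for Atp6v0e2 and -0.28 for Atp6v1g2.

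Atg16l1, Tfe3, Neu1 and Ctsl were the other genes with an unadjusted exact permutation p under 0.05, at r = 0.82, 0.78, 0.78 and 0.76. Without MEKi 1 and control 4 the r values were 0.89, 0.65, 0.56 and 0.58. Atp6v0d2 had r = 0.71 (exact permutation p = 0.0501, adjusted p = 0.347; rho = 0.71), and Tfeb r = -0.61 (exact permutation p = 0.0824, adjusted p = 0.403; rho = -0.64). Endothelial marker means moved in the same direction as ERK output: they were 8.77, 9.49, 9.11 and 9.12 in MEKi 1 to 4, against 9.88, 9.93, 9.06 and 8.65 in control 1 to 4. T cell marker means were 9.32, 8.02, 9.23 and 8.56 in MEKi 1 to 4, against 8.45, 8.54, 8.38 and 9.68 in control 1 to 4. They were highest in control 4 and lowest in MEKi 2, the libraries with the lowest and the highest ERK mean. Macrophage marker means were highest in control 2 (11.41) and control 1 (10.93), while MEKi 2 had 10.62. The part of these and other cell types in the relations was not tested.

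**Figure D5:**
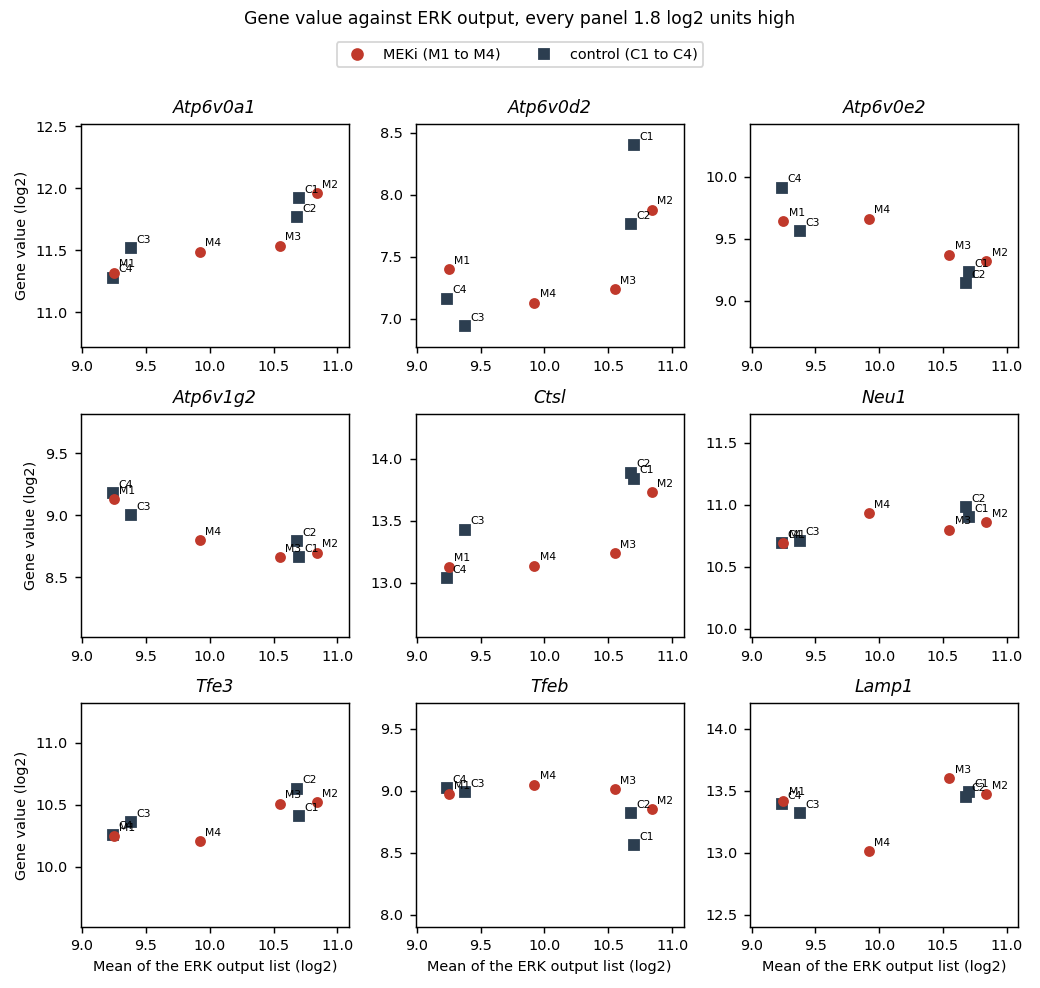
Value of 9 genes (vertical axes, log2, each spanning 1.8 units) against the mean of the ERK output list (horizontal axis, log2), 1 point per library, MEKi M1 to M4 in red and control C1 to C4 in dark blue. Atp6v0a1 lies higher, and Atp6v0e2 and Atp6v1g2 lower, in the libraries with higher ERK output under both labels, while Lamp1 shows its low value in MEKi 4 (13.01).

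Further genes of these pathways were counted in the same way. Limma called 0 of 34 other lysosomal enzyme and cofactor genes, 0 of 21 lysosomal membrane and sorting genes, 0 of 39 other autophagy genes and 0 of 17 genes of lysosomal TORC1 signalling, against 0.00523% of all genes. At an unadjusted limma p under 0.05 stood 0, 0, 0 and 1 of them, against 1.77% of all genes. Differences had medians of 0.02, 0.02, 0.05 and -0.03, against 0.01 over all genes. In sign, 20 of the 34 enzyme and cofactor genes, 15 of the 21 membrane and sorting genes, 31 of the 39 autophagy genes and 8 of the 17 TORC1 genes were higher under the MEKi label, against 51.5% of all genes. The autophagy list mean was 10.30, 10.44, 10.34 and 10.52 in MEKi 1 to 4, against 10.38, 10.35, 10.34 and 10.29 in control 1 to 4. The libraries overlapped, with MEKi 4 and MEKi 2 highest.

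In each list, 1 gene had the smallest p. Rragd, which encodes a Rag GTPase that recruits mTORC1 to the lysosome and is a known MiT target, had 6.68, 6.57, 6.65 and 6.59 under the MEKi label, against 7.02, 7.42, 7.96 and 6.89 under the control label. All libraries labelled MEKi lay below all labelled control, which was so for 0.701% of all genes. Rragd was picked for its p, and the difference was -0.70 (SE 0.22, limma unadjusted p = 0.01086, adjusted p = 0.9996). Its highest values were in control 3 and control 2, the libraries with the highest acinar means, and with the acinar mean as a covariate the difference was -0.40 (limma unadjusted p = 0.0790). Without both of these libraries, an alternative added after the data were seen, it was -0.33 (limma unadjusted p = 0.0728). With voom on the recovered reads it was -1.19 (limma unadjusted p = 0.009), and with 1 library left out it lay between -0.85 without control 4 and -0.49 without control 3.

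Igf2r, the receptor that sorts mannose-6-phosphate tagged hydrolases to the lysosome, had 11.74, 11.83, 11.43 and 10.67 in MEKi 1 to 4, against 11.82, 11.94, 11.84 and 11.76 in control 1 to 4. MEKi 4 was lowest, and the difference was -0.42 (SE 0.22, limma unadjusted p = 0.09004, adjusted p = 0.9996). It was -0.17 without MEKi 4 and -0.56 without MEKi 2 (limma unadjusted p = 0.0348). With any library but MEKi 2 left out, the limma unadjusted p lay between 0.0537 and 0.164. Vmp1, needed for autophagosome formation at the endoplasmic reticulum, had 12.49, 12.94, 13.04 and 13.06 in MEKi 1 to 4, against 12.96, 12.60, 12.44 and 12.51 in control 1 to 4, a difference of 0.25 (SE 0.16). With all libraries the limma unadjusted p was 0.1477. The difference was 0.38 without MEKi 1 (limma unadjusted p = 0.0229) and 0.36 without control 1 (limma unadjusted p = 0.0445). These libraries held the lowest value under the MEKi label and the highest under the control label. With any other library left out it lay between 0.19 and 0.24 (limma unadjusted p between 0.219 and 0.311). Hgsnat, an enzyme of heparan sulfate breakdown, had 10.24, 10.08, 10.14 and 10.15 in MEKi 1 to 4, against 10.38, 10.25, 10.31 and 10.23 in control 1 to 4, a difference of -0.14 (SE 0.09). Neither Vmp1 nor Hgsnat separated the labels.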

How the data were processed

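RNA was extracted from 8 isografts and sequenced as strand-specific total RNA, per the labels' protocols. STAR 2.5.3a, DESeq2 1.18.1 and GRCm38 were used, per the submitters' processing notes; annotation and counting were not given in the sources used here. Values deposited by the authors are log2 variance-stabilised counts. Inverting the transformation gave whole reads for 100.0% of values (tolerance 0.01), so depth could be read. Of 19431 rows, 32 name no gene (0.1006% to 0.1669% of reads) and were left out, and of 86 symbols with several rows the highest was kept, leaving 19129 genes.

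The test of each gene was that of limma 3.58.1 in R 4.3.3 (trend, no covariate, Benjamini-Hochberg over all genes). Levels per length use GENCODE exons and size factors derived from the table. The exons of 5 genes of the set (Atp6v0a4, Ctsd, Ctsl, Glb1 and Atg9a) overlap another gene on the same strand and those of 17 on the other strand, so their reads are uncertain. The fit was tested on simulated data. The alternatives were robust or untrended moderation, other normalizations and filters, limma voom on the recovered reads with TMM scaling, array weights, covariates, the replicate block and libraries left out. Same-numbered libraries did not deviate together, so replicate numbers were not taken as pairs.

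The genes, classes and lists were chosen with earlier results of these data known. The correlations with the ERK output mean were not planned. Values in every library are given for up to 3 genes per class with the smallest p, up to 2 with the widest range, 9 genes named by the rule (Dusp6, the MiT factors, Sqstm1, Map1lc3b, Lamp1, Ctsb and Ctsd), the gene with the smallest p of each pathway list, and those with the strongest relation to ERK output, the last added after their values were seen.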

Additional observations from a re-analysis of the deposited data

Results flagged for a closer look

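Among 130 sets of 4 libraries of one label (each gene, each class mean and Dusp6), 5 (3.8%) held a library far from its neighbours by Dixon's test at its 95% critical value, where chance gives about 1 in 20. Glb1 was 11.07 in MEKi 4, with 10.63 next among the libraries labelled MEKi. Npc1 was 11.13 in MEKi 4, with 10.84 next. The class mean of lysosomal membrane and lipid transfer genes was 12.79 in MEKi 3, with 12.70 next. Atp6v1b2, the widely expressed B subunit, was 12.18 in control 1, with 12.00 next among the libraries labelled control. Sqstm1 was 12.39 in control 4, with 12.57 next.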

How the results depend on the processing

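The count of genes of the set called between the labels was 0 under each of 21 alternatives, and at most 1 had an unadjusted limma p under 0.05 (Atp6v0a4, with the acinar mean as covariate, difference 0.47). Of 1172 gene values under an alternative, 1157 lay within 1 SE of the value reported. Over all genes, 1 was called lower; this was 0 for the highest 75% of genes, with an acinar, macrophage or Dusp6 covariate and with the replicate block, between 0 and 2 with 1 library left out (2 without control 4), and 4 without control 2 and control 3, chosen after the data were seen. The replicate block changed no other call. Class differences ranged from -0.09 to 0.16; the V1 sector was at 0.09 with voom, and with class medians hydrolases were at 0.16 and ATG8 proteins and receptor at 0.05. With the nearest 150 promoter bases, CACGTG was in 9 genes and TCATGTGA in 1. The Dusp6 difference ran from -0.16 to 1.06 with 1 library left out, and was negative without MEKi 2, MEKi 3, control 3 or control 4. The cause was not tested. With 4 libraries per label, the intervals above give the precision on the deposited scale, which compresses differences of genes with few reads, such as Atp6v1b1.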
